A study of Mus musculus with 2 samples.

Results

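Nos2-positive macrophages were tumour macrophages in which at least 1 transcript of Nos2, the inducible nitric oxide synthase gene (chr11:78920787-78960254, + strand, GRCm38), had been counted. A barcode entered the macrophage gate when it held at least 500 detected genes, at most 10% mitochondrial UMIs (unique molecular identifiers, 1 per captured transcript) and at least 1% of its UMIs in the complement genes C1qa, C1qb and C1qc together. It also had no UMI of Cd3d, Cd3e or Cd3g, none of the division genes Mki67 and Top2a, and under 20 UMIs in all of the interferon genes Ifit1, Ifit2, Ifit3, Cmpk2, Rsad2 and Oasl1. Of 7005 deposited barcodes, 3998 were gated macrophages and 307 of these were Nos2-positive. The responder library gave 256 Nos2-positive and 2411 Nos2-zero macrophages, and the non-responder library gave 51 Nos2-positive and 1280 Nos2-zero macrophages.

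CD45+ immune cells had been sorted from tumours of C57BL/6 mice and sequenced cell by cell. The mice carried subcutaneous MC38-GFP tumours, grown from 50000 injected cells of a mouse colon adenocarcinoma line that makes green fluorescent protein. All of them had received a sub-optimal course of anti-PD-1 antibody, 100 ug on days 12, 15, 18 and 22, which blocks an inhibitory receptor of T cells. The labels give 1 library for responder and 1 for non-responder tumours, and the number of mice behind each was not given. With 1 library per group there was no test between responder and non-responder tumours, and the difference between the libraries has no replicate check. Sorting and dissociation of the tumours preceded the counts, so shares describe captured cells.

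Inducible nitric oxide synthase makes nitric oxide and citrulline from arginine. Mouse macrophages are known to switch Nos2 on in response to interferon-gamma together with microbial or inflammatory signals, and low oxygen can raise it through hypoxia-inducible factors. Arginase 1 competes with it for the same arginine, so Nos2 and Arg1 are often used as markers of opposite macrophage states.

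The responder library held 4425 barcodes and 45866561 UMIs with a median of 10000 UMIs per barcode, against 2580 barcodes, 32032569 UMIs and a median of 11729 in the non-responder library. The libraries had 14 barcode sequences in common, of which 1 belonged to a Nos2-positive macrophage of the responder library and none to one of the non-responder library. Nos2-positive and Nos2-zero macrophages had close depths, with medians of 9816 and 9615 UMIs in the responder library and 12371 and 11414.5 in the non-responder library. Mitochondrial UMIs made up a median of 1.73% in Nos2-positive and 2.08% in Nos2-zero cells of the responder library, and 1.66% and 2.22% in the non-responder library. The median C1q share was 2.51% in Nos2-positive and 2.68% in Nos2-zero cells of the responder library, and 1.97% and 2.30% in the non-responder library.

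The label of macrophage was checked with 15 genes that the rule did not use, among them Adgre1, Csf1r, Cd68 and Fcgr1. All 15 had counts in the Nos2-positive cells of both libraries. Their summed level was 38219 CPM (counts scaled to a fixed total per sum) in Nos2-positive and 37701 CPM in Nos2-zero cells of the responder library, and 33630 and 40602 CPM in the non-responder library. T cell markers summed to 6.28 CPM in Nos2-positive and 8.21 CPM in Nos2-zero cells of the responder library, and 4.67 and 4.70 CPM in the non-responder library. Dendritic cell markers summed to 24.7 CPM in Nos2-positive and 57.6 CPM in Nos2-zero cells of the responder library, and 15.6 and 26.6 CPM in the non-responder library. Cd209a, Flt3, Zbtb46 and Siglech had no count in Nos2-positive cells of either library. Of these, Cd209a, Flt3 and Siglech had none in responder Nos2-zero cells either, and Zbtb46 none in those of the non-responder library. Natural killer markers summed to 91.4 CPM in Nos2-positive and 82.8 CPM in Nos2-zero responder cells and to 7.79 and 7.45 CPM in those of the non-responder library. In Nos2-positive cells 3 of 10 of these markers had counts in the responder and 2 of 10 in the non-responder library. Ncr1, Klrb1c, Klre1, Prf1, Eomes, Klra4 and Klra8 were at 0 there in both. Of these, Ncr1, Eomes and Klra8 had no count in Nos2-zero cells of either library. The B cell markers held counts of Cd79b alone in Nos2-positive cells. Fibroblast, tumour epithelial, and mast cell and basophil lists each stayed at or under 6.67 CPM in Nos2-positive cells.

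Neutrophil markers were the exception in the responder library, where 9 of 15 had counts and summed to 197 CPM (Poisson interval 180 to 215) in Nos2-positive cells, against 105 CPM in Nos2-zero cells. In the non-responder library 7 of 15 had counts and summed to 90.3 CPM in Nos2-positive and 116 CPM in Nos2-zero cells. Most of the responder sum came from Il1r2, with 259 counts, Trem1, with 182, and Csf3r, with 53, which monocytes and macrophages can also express. S100a8 and S100a9, the most abundant neutrophil transcripts, had 3 counts and 1 count in Nos2-positive and 45 counts and none in Nos2-zero cells of the responder library, and 6 and 4 counts against 388 and 230 in the non-responder library. Mmp8, Mmp9, Camp and Lcn2 had 2, 1, 1 and 1 counts in the Nos2-positive cells of the responder library. Cxcr2, Ly6g, Retnlg, Ngp and G0s2 had none there, and of these Retnlg, Ngp and G0s2 had none in the responder Nos2-zero cells either. The 16 listed monocyte genes, among them Ly6c2, Ccr2 and Plac8, summed to 1102 CPM in Nos2-positive and 727 CPM in Nos2-zero cells of the responder library, and to 1169 and 1235 CPM in the non-responder library. Of the 11 measured, 10 were higher in the responder library, where 43.5% of all measured genes were, and 9 were lower in the non-responder library, where 65.5% were, with median log2 ratios of Nos2-positive over Nos2-zero of 0.32 and -0.44. The part of neutrophil or monocyte transcripts in the results was not tested.

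Of the genes that give these cells their label, Slc7a11, the cystine transporter, was higher in both libraries, with 116 CPM in Nos2-positive and 40.2 CPM in Nos2-zero cells of the responder library and 140 and 70.2 CPM in the non-responder library. The log2 ratio of Nos2-positive over Nos2-zero was 1.53 (1.33 to 1.72) and 0.997 (0.67 to 1.31). Il1b, the interleukin-1 beta cytokine gene, stood at 664 and 543 CPM in the responder library and at 324 and 242 CPM in the non-responder library, and the share of cells with a UMI was 71.5% against 66.1% in the responder library and 39.2% against 43.4% in the non-responder library. The log2 ratio of Il1b was 0.29 (0.22 to 0.36) and 0.42 (0.21 to 0.62), so its sum was higher in both libraries while its share of cells was not higher in the non-responder library. Ly6i, a Ly6-family surface protein gene, and Ocstamp, a gene of macrophage and osteoclast fusion, had too few counts in the non-responder library to give a direction there. Ly6i had 186 CPM in Nos2-positive and 49.8 CPM in Nos2-zero cells of the responder library, but a single count (1.56 CPM) against 6.24 CPM in the non-responder library, a log2 ratio of -2.002 with an interval of -7.32 to 0.51. Ocstamp had 40.4 and 13.9 CPM in the responder library and 3 counts, all in 1 cell, in the non-responder library, a log2 ratio there of 0.63 with an interval of -1.70 to 2.27. Ly6i belongs to a family of similar genes, so reads may have been shared with its relatives.

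Nos2 was found in 9.60% of gated macrophages of the responder library (256 of 2667, exact interval 8.51 to 10.8%) and in 3.83% of the non-responder library (51 of 1331, 2.87 to 5.01%). All intervals given here are at 95% and cover counting error only, not the spread between tumours. Most of these cells rested on 1 Nos2 UMI, 183 of 256 (71.5%) in the responder and 39 of 51 (76.5%) in the non-responder library, and the highest cell held 10 and 7 UMIs. At least 2 UMIs were found in 2.74% of macrophages of the responder library, against 0.902% of the non-responder library. At least 3 UMIs were found in 0.975% (26 cells, 0.638 to 1.43%) and 0.601% (8 cells, 0.260 to 1.18%), with overlapping intervals.

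Free RNA can place a UMI in a cell that does not make the transcript, so T cells served as a background. In the responder library 1 of 89 T cells held Nos2 (1.12%, 0.0284 to 6.10%), at a median of 3718 UMIs per T cell against 9640 per gated macrophage. In the non-responder library 0 of 67 T cells held Nos2, which by a limit of 3 counts allows a share of cells with a UMI of up to 4.48%, at a median of 5088 UMIs against 11465. The responder share lay above its T cell interval, whereas the non-responder share of 3.83% lay under the limit its T cells allow. After each cell was thinned to 3000 UMIs, Nos2 remained in 3.34% of responder macrophages and 1.504% of those of the non-responder library, with 66 and 1 shallower macrophages left out, and the responder T cells stood at 1 of 75 (0.0338 to 7.21%), so at equal depth the share was not separable from T cells by counting error. Within the non-responder library, Nos2 was in 1 of 333 macrophages with the lowest hypoxia-gene levels and in 43 of 333 with the highest. That split used a list chosen with earlier results of these data known, and it does not measure free RNA. The part of free RNA in these counts was not tested.

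Depth did not order the responder shares. They ran from 7.69% to 13.9% over the 8 bins of total UMIs, with 8.55% (13 of 152) among macrophages under 4000 UMIs and 7.69% (1 of 13) among those at or above 20000. In the non-responder library the bins ran from 0 of 38 under 4000 UMIs to 5.44% (13 of 239) between 8000 and 10000 UMIs and 5.43% (12 of 221) between 15000 and 20000. Non-responder bins weighted to the responder depths gave 3.56%, close to the unweighted 3.83%. At 6000 UMIs per cell the shares were 7.11% in the responder library, against 2.63% in the non-responder library.

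**Figure D1:**
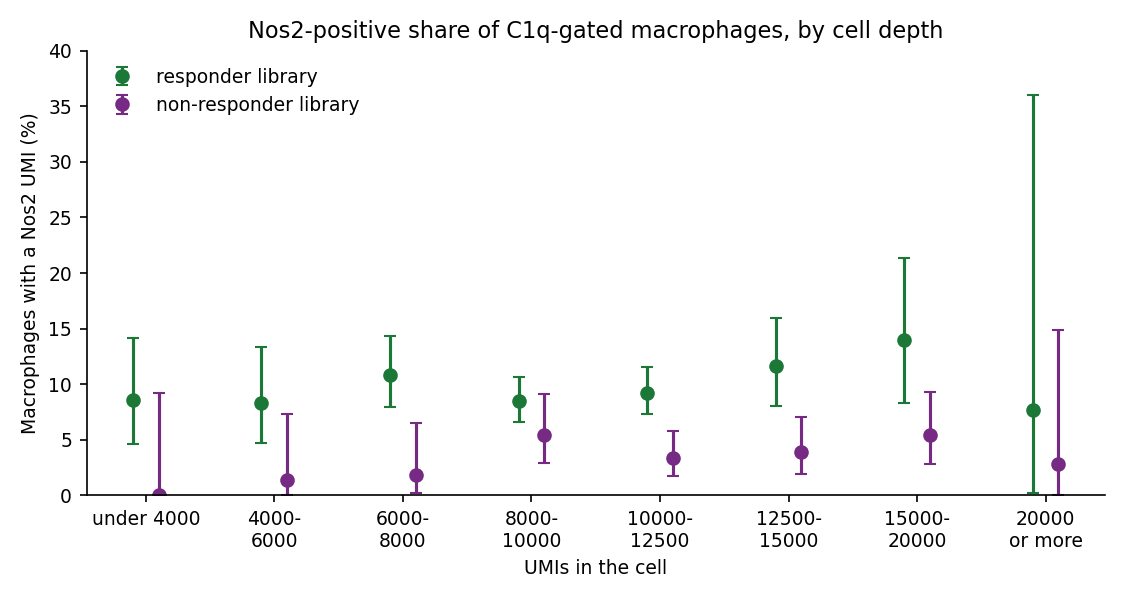
Percent of gated macrophages with at least 1 Nos2 UMI by bin of total UMIs per cell, responder and non-responder libraries; bars are exact 95% intervals for counting error. Responder shares lie between 7.69% and 13.9% and non-responder shares between 0 and 5.44%.

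Nos2 was not confined to the gate. Outside it, 188 of 1709 filtered barcodes (11.0%) of the responder and 89 of 1234 (7.21%) of the non-responder library held Nos2, so the non-responder library had more Nos2-holding barcodes outside the gate than inside. Just inside the C1q threshold, at 1 to 1.5% C1q, Nos2 was in 21.3% of responder cells, against 7.27% of non-responder cells that met the other criteria, and just outside it, at 0.5 to 1%, in 25.6% and 14.3%. Barcodes with at least 20 interferon-gene UMIs held Nos2 in 15.3% and 14.1% of cases, and those with a division-gene UMI in 9.02% and 4.60%. The 256 and 51 cells thus described Nos2 in the C1q-rich, non-dividing, interferon-low macrophages.

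Summed counts of Nos2-positive and Nos2-zero macrophages were compared within each library, as CPM of the sum and as a log2 ratio. The Nos2-positive sums held 2549540 UMIs in the responder library, against 642170 in the non-responder library, so 1 count was worth 0.392 and 1.56 CPM. The filter was 5 CPM over the Nos2-positive and Nos2-zero sums together in each library, and the 15 genes of the rule were left out. Of the 7269 genes measured, 26 (0.358%) were more than 2-fold higher in Nos2-positive cells of both libraries. Another 18 (0.248%) were more than 2-fold lower in both. The Nos2-zero sums held more UMIs, so genes high in Nos2-zero cells passed the filter more easily. The shares of all genes higher or lower in this comparison carry that filter. Under edgeR's TMM scaling these counts were 28 and 13, and under median-of-ratios scaling 29 and 12. The median log2 ratio of all measured genes was -0.04 in the responder library, against -0.20 in the non-responder library, and -0.03 and -0.07 under TMM. Of the 26, 15 were the highest by the counting bound of their weaker library and are described with their roles, and the other 11 were Rhov, Mmp13, Mcemp1, Mtss1, Eaf1, Mgarp, Impdh1, Mxi1, Adam8, Il7r and Slc2a1. Of the 18, 6 were among the 10 lowest by that bound, and the other 12 were Zfp810, Ramp1, Siglece, Nmral1, Gm26802, Fam212a, Ube2c, Treml4, Gdpd5, Lockd, Trmt61a and Cdkn3. The ratio was above 1 in both libraries for 20.5% of genes and below 1 in both for 42.5%. Within single libraries, 0.647% of genes were past 2-fold higher and 0.839% lower in the responder library, with 43.5% of ratios above 1 and 56.5% below, against 1.8% and 9.78% in the non-responder library, with 34.5% above 1 and 65.5% below.

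**Figure D2:**
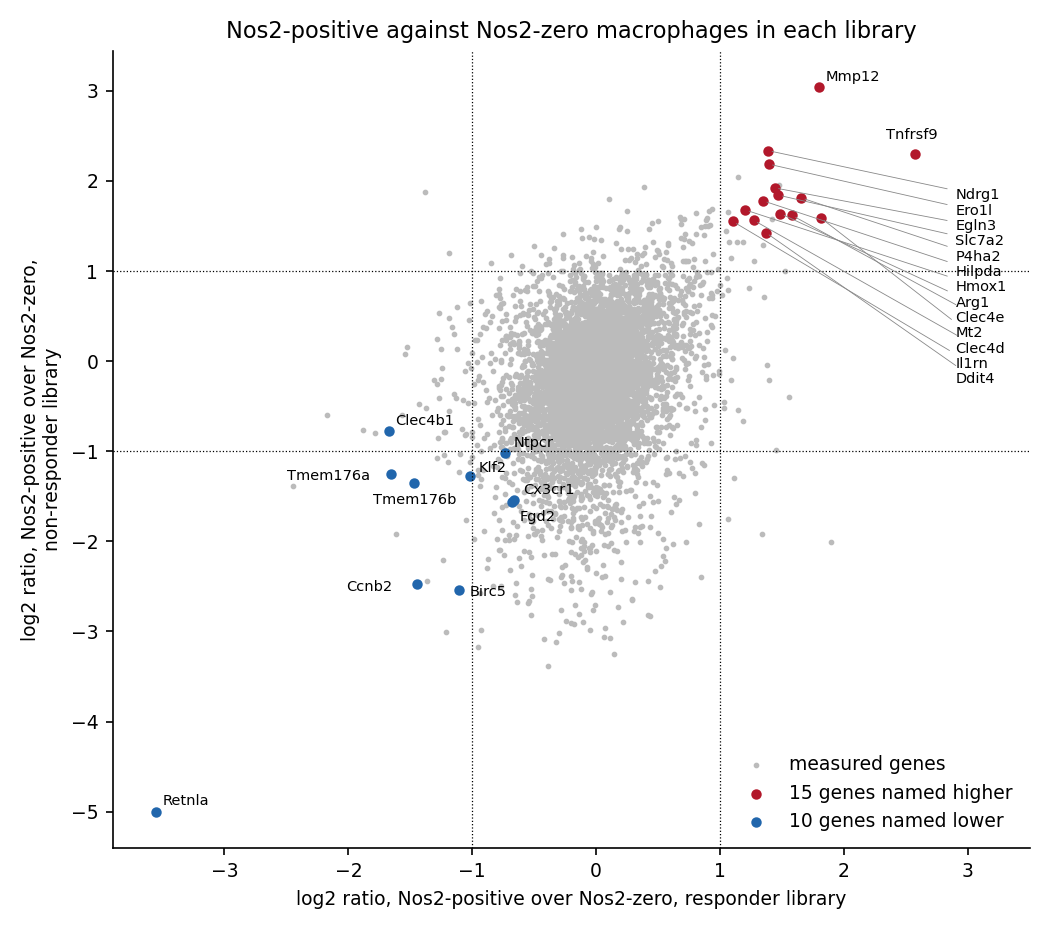
Log2 ratio of Nos2-positive over Nos2-zero summed CPM for the 7269 measured genes, responder library on the horizontal and non-responder library on the vertical axis; dotted lines mark 2-fold. The 15 genes named higher and 10 named lower are labelled, and the non-responder values of Retnla and Clec4b1, which had no count there, are limits from 3 counts.

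Genes induced by low oxygen had the highest median ratio of the pathway lists in each library. Hypoxia-inducible factors bind DNA at a short core, searched here only in the form ACGTG. They raise glucose uptake, glycolysis and feedback enzymes such as the prolyl hydroxylase Egln3. Of the 17 measured genes of a hypoxia list, 16 were higher in both libraries, where 20.5% of all genes were, and 8 more than 2-fold higher in both, and the list's median log2 ratio was 0.93 in the responder library, against 1.43 in the non-responder library. The 250 bases before the RefSeq start are shown for Slc2a1, Bnip3, Egln3 and Ddit4, hypoxia genes that were higher and carry the core there. Capitals mark ACGTG or its complement CACGT, sequences run 5′ to 3′ on the gene's strand, and the build is GRCm38.p6. Slc2a1 lies at chr4:119108495-119108744 (+ strand), Bnip3 at chr7:138909507-138909756 (- strand), Egln3 at chr12:54203875-54204124 (- strand) and Ddit4 at chr10:59951771-59952020 (- strand).
Slc2a1: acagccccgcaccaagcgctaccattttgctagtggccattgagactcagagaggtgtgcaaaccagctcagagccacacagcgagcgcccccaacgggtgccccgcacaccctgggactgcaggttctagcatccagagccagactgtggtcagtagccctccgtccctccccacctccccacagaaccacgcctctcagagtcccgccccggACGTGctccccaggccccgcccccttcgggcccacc
Bnip3: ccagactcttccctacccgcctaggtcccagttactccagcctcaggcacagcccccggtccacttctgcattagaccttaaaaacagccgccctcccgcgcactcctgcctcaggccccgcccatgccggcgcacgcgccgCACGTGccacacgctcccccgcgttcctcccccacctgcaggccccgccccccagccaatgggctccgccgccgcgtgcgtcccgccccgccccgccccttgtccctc
Egln3: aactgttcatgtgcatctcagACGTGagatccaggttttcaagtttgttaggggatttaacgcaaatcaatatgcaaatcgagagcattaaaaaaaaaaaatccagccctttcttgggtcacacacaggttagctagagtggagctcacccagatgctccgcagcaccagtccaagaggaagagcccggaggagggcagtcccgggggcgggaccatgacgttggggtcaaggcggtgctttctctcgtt
Ddit4: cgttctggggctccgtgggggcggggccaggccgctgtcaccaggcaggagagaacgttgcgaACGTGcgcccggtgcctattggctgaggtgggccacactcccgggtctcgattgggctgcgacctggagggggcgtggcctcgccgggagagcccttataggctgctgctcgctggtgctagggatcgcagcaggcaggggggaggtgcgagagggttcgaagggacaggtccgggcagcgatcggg

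The core began 36 bases before the start in Slc2a1, 187 in Ddit4 and 229 in Egln3. In Bnip3 the 2 overlapping matches on opposite strands, 108 and 107 bases before the start, together spell CACGTG. Either strand of the core was present in 8 of the 14 hypoxia-list genes found in the promoter table (57.1%) and in 6 of 15 glycolysis genes (40%), against 1324 of 5664 measured genes (23.4%) and 3172 of 17895 genes in all (17.7%). Among the genes named higher it was in 4 of 10 (40%) and among those named lower in 2 of 10 (20%). The 4 were Clec4e and the hypoxia-list genes Egln3, P4ha2 and Ddit4, so this count is not separate from that of the hypoxia list. Other motifs were searched on both strands in the same windows, where matches of different motifs may overlap. The NF-kB letters, GGGA followed after any 4 bases by CC, were in 5 of the 10 genes named higher (50%), 2 of the 10 named lower, 6 of the 14 hypoxia genes (42.9%) and 21.2% of measured genes. The AP-1 letters TGANTCA were in 2 of the 10 named higher, none of those named lower and 3.90% of measured genes, and the antioxidant response core TGACNNNGC was in 2, none and 12.2%. The interferon element letters, GAAA followed after any 2 bases by GAAA, were in none of the 10 named higher, 1 of those named lower and 3.001% of measured genes. These are matches of letters in one window and do not show binding. The other 6 hypoxia genes, Vegfa, Hilpda, Mif, Mxi1, Pdk1 and Higd1a, had no match to ACGTG on either strand in this window. With 50 bases after the start added, Mif and Higd1a each had 1 match. Of the 8 genes with the core, the RefSeq starts of Ankrd37 and P4ha2 lay 5857 and 829 bases from their GENCODE starts. Car9, whose level was not higher in the responder library, carried it 18 bases before the start.

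Hilpda (chr6:29272488-29275446, + strand), which encodes a lipid droplet protein, had 162 CPM in Nos2-positive and 63.8 CPM in Nos2-zero macrophages of the responder library and 494 and 144 CPM in the non-responder library. Its log2 ratio was 1.35 (1.19 to 1.51) and 1.78 (1.60 to 1.95), and it was found in 44.5% against 26.9% of responder cells and in 82.4% against 42.3% of non-responder cells. T cells are no empty background for Hilpda, since 62.9% of T cells of the responder library and 31.3% of those of the non-responder library held it. Egln3 (chr12:54178981-54203860, - strand) had 43.1 and 15.9 CPM in the responder library, against 115 and 30.4 CPM in the non-responder library. Its log2 ratio was 1.44 (1.12 to 1.75) and 1.92 (1.55 to 2.28). Ndrg1, a stress-responsive gene of many tissues, had 47.9 and 18.3 CPM in the responder library, against 143 and 28.4 CPM in the non-responder library, log2 ratios of 1.39 (1.09 to 1.68) and 2.34 (1.99 to 2.66). All 3 genes were thus higher in the Nos2-positive cells of each library by more than their counting error.

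Ero1l, an oxidase of disulfide bond formation in the endoplasmic reticulum, had 53.0 CPM in Nos2-positive and 20.2 CPM in Nos2-zero cells of the responder library and 171 and 37.6 CPM in the non-responder library. P4ha2, a collagen prolyl hydroxylase subunit, had 16.9 and 5.36 CPM and 35.8 and 10.2 CPM, and Ddit4, an inhibitor of the growth kinase mTORC1, had 58.8 and 22.8 CPM and 81.0 and 30.1 CPM. Their log2 ratios lay between 1.37 and 1.65 in the responder library, and between 1.43 and 2.19 in the non-responder library. Slc2a1, the glucose transporter GLUT1, was found in 59.8% of Nos2-positive and 37.0% of Nos2-zero cells of the responder library and in 88.2% and 54.1% of the non-responder library, at log2 ratios of 1.05 and 1.44. Bnip3, a mitophagy receptor gene, had 275 and 145 CPM and 758 and 267 CPM, log2 ratios of 0.92 and 1.51. Vegfa, the endothelial growth factor gene, had 46.7 and 29.2 CPM and 45.2 and 15.0 CPM, log2 ratios of 0.68 and 1.59. The exception of the list was Car9, a carbonic anhydrase, with 9.41 and 14.5 CPM in the responder library, against 15.6 and 13.8 CPM in the non-responder library.

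All 15 measured glycolysis genes were higher in both libraries, where 20.5% of all genes were, with a median log2 ratio of 0.47 in the responder library, against 0.81 in the non-responder library and none past 2-fold in both. Aldoa, the aldolase of this pathway, had 2758 CPM in Nos2-positive and 1966 CPM in Nos2-zero cells of the responder library and 4155 and 2294 CPM in the non-responder library. Pgk1, a phosphoglycerate kinase, had 43.9 and 27.3 CPM and 84.1 and 32.5 CPM, log2 ratios of 0.69 and 1.37. Slc16a3, the lactate exporter, was at log2 ratios of 0.76 and 0.36. Of 20 measured oxidative phosphorylation genes, 16 were lower in both libraries, where 42.5% of all genes were, with medians of -0.13 and -0.22 beside the all-gene medians of -0.04 and -0.20.

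The share of Nos2-positive cells was also set out by these lists, which describes the same cells and levels from the other side and is no separate support. Gated macrophages of each library were split into 4 bins of equal size by the summed level of the hypoxia list, which are ranges and not cell types. From the lowest to the highest bin the Nos2-positive share of the responder library was 2.25%, 6.31%, 9.60% and 20.2%. In the non-responder library it was 0.300% (1 of 333), 0 of 332, which allows a share of up to 0.904%, 2.10% and 12.9% (43 of 333). Median depth was similar across bins, 9164 to 9847 UMIs in the responder and 10307 to 12263 UMIs in the non-responder library, and the highest bin was the shallowest in both. By glycolysis genes the shares were 3.60%, 5.41%, 11.1% and 18.3% in the responder library and 0, 0.602%, 2.40% and 12.3% in the non-responder library. By interferon-gamma induced genes they were 8.996%, 7.51%, 10.2% and 11.7% in the responder library and 3.60%, 3.61%, 4.20% and 3.90% in the non-responder library. The share was highest in the highest hypoxia and glycolysis bins of both libraries, and it differed by less across the interferon-gamma bins.

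**Figure D3:**
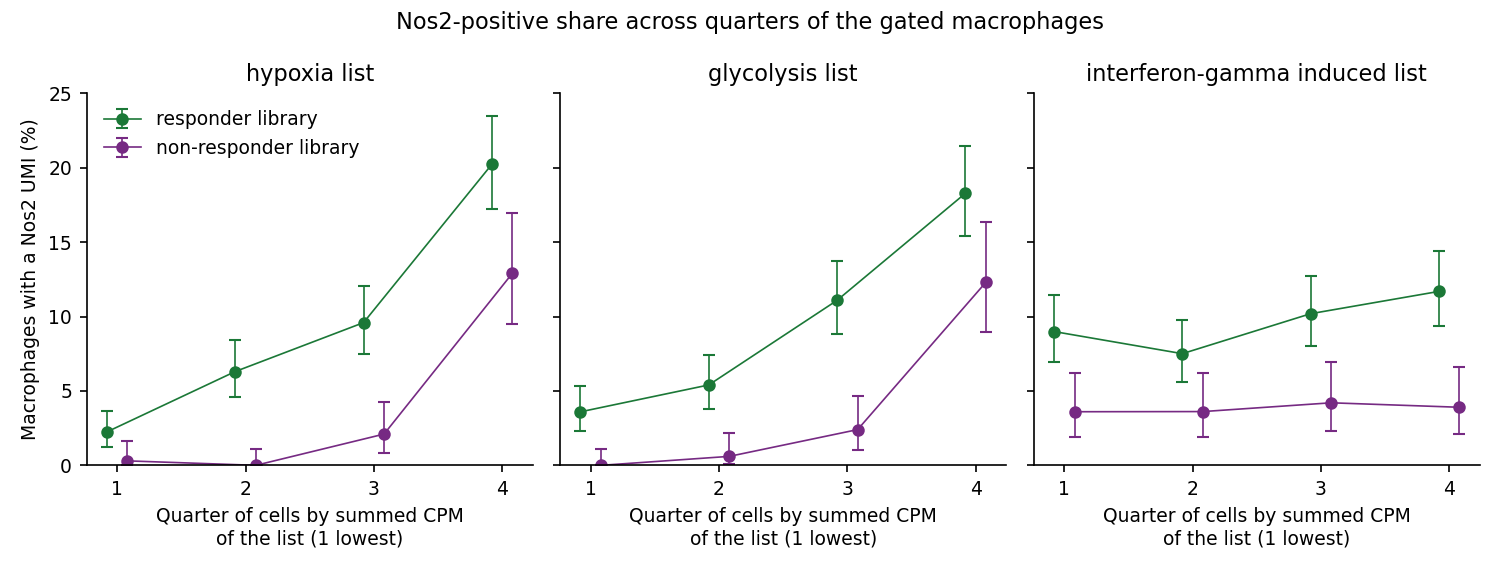
Percent of gated macrophages with at least 1 Nos2 UMI in 4 equal bins of the summed CPM of the hypoxia, glycolysis and interferon-gamma lists, lowest to highest, for the responder and non-responder libraries; bars are exact 95% intervals for counting error. The highest hypoxia bin reaches 20.2% in the responder library and the lowest 2.25%, and in the non-responder library these are 12.9% and 0.300%.

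Arg1 (chr10:24915221-24927484, - strand), the arginase gene, was higher and not lower in Nos2-positive macrophages. It had 810 CPM in Nos2-positive and 289 CPM in Nos2-zero cells of the responder library and 1990 and 640 CPM in the non-responder library, log2 ratios of 1.49 (1.42 to 1.56) and 1.64 (1.55 to 1.72). Arg1 was found in 68.0% of Nos2-positive against 46.8% of Nos2-zero cells of the responder library and in 78.4% against 54.0% of the non-responder library. At 3000 UMIs per cell these shares were 54.4% against 29.9% and 60.8% against 37.8%, and T cells held Arg1 in 10.1% and 8.96% of cases. Read the other way, Nos2 was in 6.01%, 9.32% and 29.4% of responder macrophages with 0, 1 to 9 and at least 10 Arg1 UMIs, and in 1.83%, 2.77% and 10.3% of non-responder macrophages. Both enzymes that use arginine were counted in the same barcodes in 174 of 256 and 40 of 51 Nos2-positive macrophages.

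Of the other genes that handle arginine and nitric oxide, the importer gene Slc7a2 had 17.3 CPM in Nos2-positive and 6.22 CPM in Nos2-zero cells of the responder library and 32.7 and 9.12 CPM in the non-responder library. Its log2 ratios were 1.47 (0.95 to 1.97) and 1.84 (1.104 to 2.51). Ass1, which with Asl rebuilds arginine from citrulline, had 251 and 169 CPM and 192 and 87.7 CPM, log2 ratios of 0.57 (0.45 to 0.69) and 1.13 (0.85 to 1.39). Gch1, Pts and Spr make tetrahydrobiopterin, the cofactor of nitric oxide synthases, and none was higher by more than counting error. Gch1 had log2 ratios of 0.16 and 0.06, Pts -0.41 and -0.96, and Spr -0.12 and -0.67. Of the 9 measured genes of this list 5 were higher in both libraries, where 20.5% of all genes were, and the median was 0.16 in the responder library, against 0.06 in the non-responder library.

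The summed level of the hypoxia list was also higher in Nos2-positive cells within each range of Arg1 UMIs, though Arg1 was not matched within a range. Among macrophages without an Arg1 UMI, the hypoxia list summed to 2472 CPM in Nos2-positive and 1587 CPM in Nos2-zero cells of the responder library and to 4644 and 1996 CPM in the non-responder library. Among those with 1 to 9 Arg1 UMIs it summed to 2993 and 2134 CPM and to 6095 and 2515 CPM. Among those with at least 10 Arg1 UMIs it summed to 4030 and 3516 CPM and to 6105 and 4094 CPM. The non-responder values without Arg1 come from 11 Nos2-positive cells. Among cells without an Arg1 UMI, a comparison added after the data were seen, 10 of the 26 genes were again more than 2-fold higher in both libraries and 1 of the 18 again more than 2-fold lower.

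Of 14 measured genes of an endotoxin and pattern recognition list, 7 were higher and none lower in both libraries, with medians of 0.45 and 0.40, where 20.5% of all genes were higher and 42.5% lower in both. Of 11 measured genes of the interleukin-1 system and inflammasome, 4 were higher and 4 lower in both, with medians of 0.10 and -0.40. Clec4e and Clec4d, neighbouring genes for the C-type lectin receptors Mincle and MCL that recognise mycobacterial glycolipid, were more than 2-fold higher in both libraries. Clec4e had 50.2 CPM in Nos2-positive and 16.8 CPM in Nos2-zero cells of the responder library and 178 and 57.9 CPM in the non-responder library, log2 ratios of 1.58 and 1.62. Clec4d had 126 and 52.1 CPM and 302 and 102 CPM, log2 ratios of 1.27 and 1.56. Il1rn, the antagonist of the interleukin-1 receptor, had 224 and 104 CPM and 332 and 113 CPM, log2 ratios of 1.104 (0.97 to 1.24) and 1.55 (1.34 to 1.76), while the inflammasome genes Nlrp3, Casp1 and Pycard lay between -0.26 and 0.20 in the responder library, and between -0.80 and -0.40 in the non-responder library. Il1r2, the decoy receptor, had 102 and 37.0 CPM in the responder library and 7.79 and 15.4 CPM in the non-responder library, log2 ratios of 1.46 (1.25 to 1.66) and -0.99 (-2.62 to 0.26). Il1r2 is also one of the 15 neutrophil markers, whose sum was 197 CPM in Nos2-positive and 105 CPM in Nos2-zero cells of the responder library and 90.3 and 116 CPM in the non-responder library, and their part in this value was not tested. Cd40 and Cd86, costimulatory receptors, were at log2 ratios of 0.74 and 0.31 in the responder library, against 0.90 and 0.54 in the non-responder library.

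Tnfrsf9 (chr4:150914562-150946102, + strand), which encodes the costimulatory receptor 4-1BB, had 48.2 CPM in Nos2-positive and 8.08 CPM in Nos2-zero cells of the responder library and 42.0 and 8.52 CPM in the non-responder library. The log2 ratio was 2.58 (2.24 to 2.91) and 2.30 (1.65 to 2.91), from 38 of 256 and 10 of 51 cells, and 1 non-responder cell held 37.0% of the counts there, without which the ratio was 1.67. T cells and natural killer cells are well known sources of 4-1BB. In Nos2-positive cells the T cell marker sums given above rested on 16 and 3 counts and the natural killer marker sums on 233 and 5. The gate had removed cells with Cd3 UMIs but used no natural killer gene. The part of T cells and natural killer cells in the Tnfrsf9 value was not tested. Cd274, the PD-1 ligand gene, had 89.8 and 48.7 CPM in the responder library, against 74.7 and 25.2 CPM in the non-responder library. It was found in 51.2% of Nos2-positive against 31.4% of Nos2-zero cells of the responder and 41.2% against 17.3% of the non-responder library. Its log2 ratios were 0.88 (0.67 to 1.09) and 1.57 (1.102 to 2.003).

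Metal and redox genes were higher as well. Mt2, a metallothionein gene with the close relative Mt1, had 274 CPM in Nos2-positive and 78.0 CPM in Nos2-zero cells of the responder library and 617 and 205 CPM in the non-responder library, log2 ratios of 1.81 and 1.59. Hmox1, heme oxygenase 1, had 324 and 141 CPM and 1282 and 401 CPM, log2 ratios of 1.20 and 1.68. A single responder cell held 19.98% of the Hmox1 counts, the ratio without it was 0.89, and in responder cells without an Arg1 UMI it was 0.07. Of 17 measured antioxidant genes 14 were higher in both libraries, where 20.5% of all genes were, with medians of 0.40 and 0.53. The ferritin heavy chain gene Fth1 was at 0.40 and 0.89.

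Mmp12, the macrophage elastase gene, had the largest non-responder ratio of the genes named here and was carried by a part of the cells. It had 64.3 CPM in Nos2-positive and 18.5 CPM in Nos2-zero cells of the responder library and 565 and 68.6 CPM in the non-responder library, log2 ratios of 1.80 (1.53 to 2.06) and 3.04 (2.87 to 3.22). Of the Nos2-positive cells, 40 of 256 in the responder library carried it, against 22 of 51 in the non-responder library, and 1 non-responder cell held 36.4% of the counts, without which the ratio was 2.42. With the C1q threshold at 2% the non-responder ratio turned to -1.46. Spp1, the osteopontin gene, had 97.3 and 55.6 CPM in the responder library, against 3069 and 1152 CPM in the non-responder library, log2 ratios of 0.81 and 1.41. Lgals3, the galectin-3 gene, was at 0.72 and 1.41.

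Among the genes lower in Nos2-positive macrophages were Tmem176b and Tmem176a, a pair of membrane protein genes expressed in myeloid cells. Tmem176b had 112 CPM in Nos2-positive and 309 CPM in Nos2-zero cells of the responder library and 160 and 408 CPM in the non-responder library, log2 ratios of -1.47 (-1.64 to -1.30) and -1.35 (-1.64 to -1.07). Tmem176a had 51.8 and 163 CPM and 88.8 and 211 CPM, log2 ratios of -1.66 and -1.25. Tmem176b was found in 30.9% of Nos2-positive against 59.3% of Nos2-zero cells of the responder and 52.9% against 75.2% of the non-responder library. The genes overlap on opposite strands (chr6:48833818-48841496, - strand, and chr6:48840919-48847071, + strand), and the strand setting of the counting is not given in the sources used here, so their counts may not be separate.

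Cx3cr1, the fractalkine receptor gene of resident macrophages and patrolling monocytes, had 161 CPM in Nos2-positive and 254 CPM in Nos2-zero cells of the responder library and 129 and 377 CPM in the non-responder library, log2 ratios of -0.66 and -1.54. Of 15 measured genes of a resident and microglia-type list none was higher in both libraries and 11 were lower in both, against 42.5% of all genes, with medians of -0.25 and -0.59. Olfml3, a secreted glycoprotein gene of that list, was at -0.45 and -1.11. Klf2, a transcription factor that restrains inflammatory genes, had 20.004 and 40.5 CPM and 23.4 and 56.4 CPM, log2 ratios of -1.02 (-1.45 to -0.61) and -1.27 (-2.12 to -0.54). Fgd2, a guanine nucleotide exchange factor gene, was at -0.68 and -1.57, and Ntpcr at -0.73 and -1.02. The division genes Ccnb2 and Birc5 were lower too, with 8.24 and 22.4 CPM and 11.8 and 25.3 CPM in the responder library, and 4 counts each in Nos2-positive cells of the non-responder library. The gate already removed cells with Mki67 or Top2a.

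Retnla, a gene of alternative activation, ranked first among the lower genes by its sum but rested on few cells. It had 2 counts (0.784 CPM) in Nos2-positive cells against 9.20 CPM in Nos2-zero cells of the responder library, a log2 ratio of -3.55 (-6.61 to -1.68), and no count against 149 CPM in the non-responder library, at least 32.0-fold lower by the 3-count limit of the sum. A single cell held 62.9% of the Retnla counts of responder Nos2-zero cells, and another held 79.4% of those of non-responder Nos2-zero cells. Retnla was in 2 of 256 (0.781%) against 16 of 2411 (0.664%) cells of the responder library, and in 0 of 51, which allows a share of up to 5.88%, against 38 of 1280 (2.97%) of the non-responder library, so the share of cells did not differ by more than counting error. Clec4b1, a lectin gene of dendritic cells, had 11.4 and 36.3 CPM in the responder library, and no count against 7.98 CPM, at least 1.71-fold lower, in the non-responder library.

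Over all Nos2-positive cells, the antigen presentation and interferon lists had median log2 ratios near those of all genes, which were -0.04 and -0.20. The 10 listed MHC class II genes summed to 66430 CPM in Nos2-positive and 71570 CPM in Nos2-zero cells of the responder library and to 13602 and 15922 CPM in the non-responder library, and the 9 measured had median log2 ratios of -0.07 and -0.21. The 20 measured interferon-gamma induced genes had medians of 0.10 and -0.07, beside the all-gene medians of -0.04 and -0.20, and 6 were higher in both libraries, as against 20.5% of all genes. Cxcl9, the chemokine gene most tied to interferon-gamma, had 702 and 661 CPM in the responder library, against 88.8 and 65.9 CPM in the non-responder library. Cxcl10 had 475 and 314.05 CPM in the responder library, against 140 and 147 CPM in the non-responder library. Measured type I interferon genes that the gate did not use had medians of -0.10 and 0.07, and MHC class I genes -0.01 and -0.00. Of 16 chemokine genes 5 were higher and 6 lower in both libraries, with Ccl5 at 0.71 and 0.55 and Ccl2 at -0.43 and -0.37. The 15 dissociation stress genes had medians of -0.22 and -0.09.

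**Figure D4:**
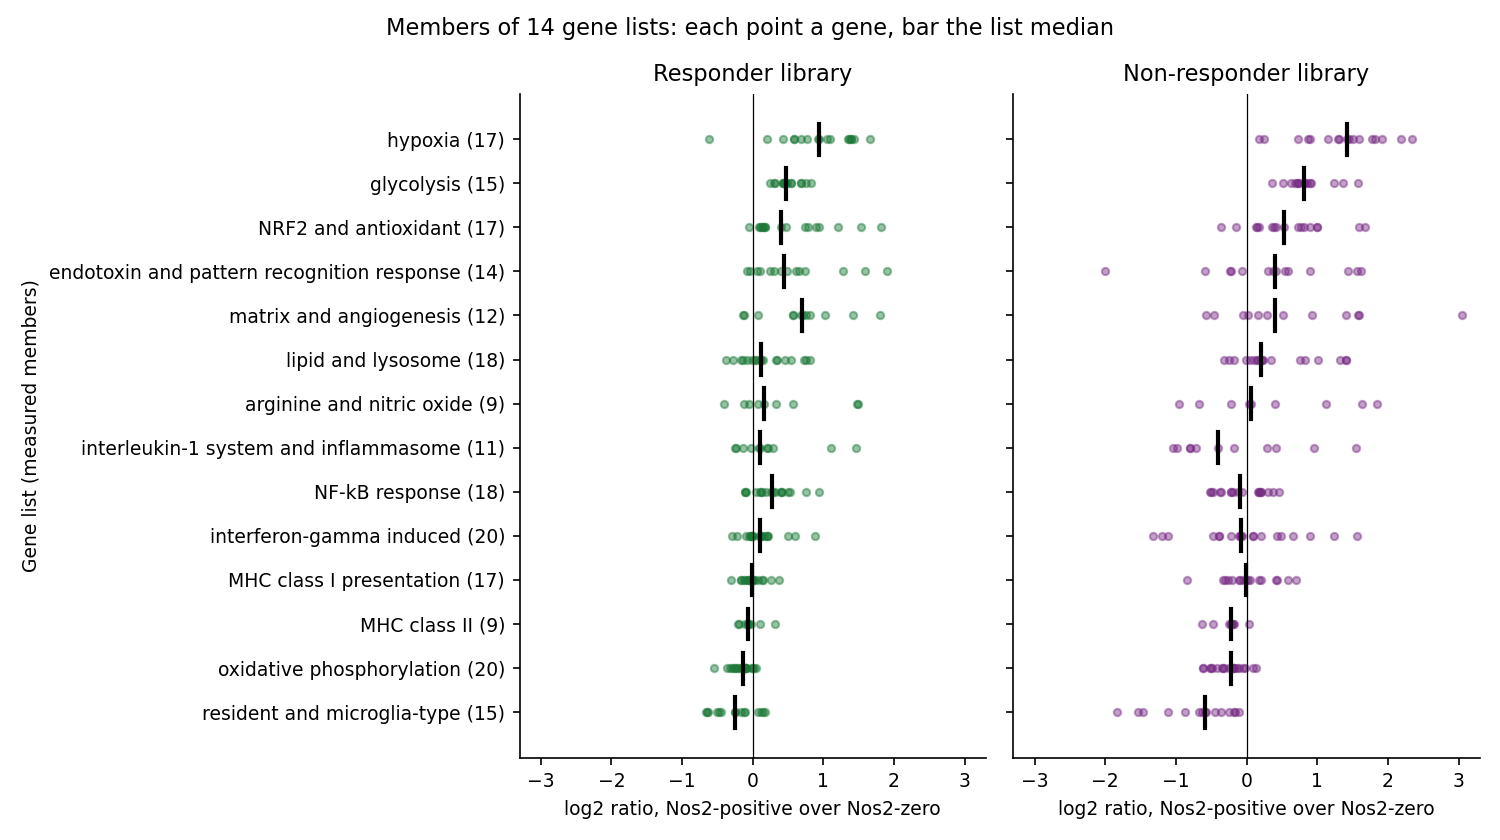
Log2 ratio of Nos2-positive over Nos2-zero summed CPM for each measured member of the gene lists (points) with the list median (vertical bars), for 14 lists in the responder and non-responder libraries; the thin line marks equal levels. The hypoxia list has medians of 0.93 and 1.43, and the interferon-gamma and MHC class II lists have medians of 0.10 and -0.07, and of -0.07 and -0.21.

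For Tmem176b, Arg1, Hilpda and the hypoxia list, cells with at least 2 Nos2 UMIs lay further from the Nos2-zero cells than cells with 1. With 0, 1 and at least 2 Nos2 UMIs, Tmem176b had 309, 133 and 63.0 CPM in the responder and 408, 190 and 69.8 CPM in the non-responder library. Arg1 had 289, 725 and 1004 CPM and 640, 1884 and 2316 CPM, and Hilpda had 63.8, 129 and 239 CPM and 144, 390 and 812 CPM. The hypoxia list summed to 1976, 3077 and 3372 CPM and to 2635, 5489.7 and 6826 CPM. Ly6i had 49.8, 146 and 275 CPM in the responder library. MHC class II summed to 71570, 67639 and 63674 CPM in the responder library and to 15922, 16263 and 5424 CPM in the non-responder library, where the last value comes from 12 cells. With at least 2 Nos2 UMIs the MHC class II median log2 ratio over Nos2-zero cells was -0.17 for responder cells and -1.61 for the 12 non-responder cells, and that of the interferon-gamma list 0.33 and 0.26. Other genes did not follow this order in each library, since Slc7a11 had 70.2, 175 and 31.7 CPM in the non-responder library, and Cx3cr1 had 254, 159 and 165 CPM in the responder library. The counts of cells with 0, 1 and at least 2 UMIs were 2411, 183 and 73 in the responder and 1280, 39 and 12 in the non-responder library, and the bins use the measure that chose the cells.

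All Nos2-positive cells, whatever their Arg1 level, were set against the 185 responder and 234 non-responder Nos2-zero macrophages with at least 10 Arg1 UMIs. By its median ratio the hypoxia list was not higher in Nos2-positive cells of the responder library. The hypoxia list's median log2 ratio was -0.12 there, with 6 of 17 genes higher, and the interferon-gamma list's was 0.41, with 25 of 25 higher, against 50.2% of all measured genes (49.8% lower) and a median of 0.00. All 10 MHC class II genes were higher, with a median of 0.44. Cxcl9 had 702 CPM in Nos2-positive and 446 CPM in Arg1-high Nos2-zero cells, Il1b 664 and 437 CPM, and Spp1 97.3 and 195 CPM. In the non-responder library the hypoxia list stayed higher, with a median of 0.66 and 18 of 18 genes, and so were 16 of 18 interferon-gamma genes (0.58) and 8 of 8 MHC class II genes (0.79), against 39% of all genes (61% lower) and a median of -0.15. Tmem176b did not differ by more than counting error from the Arg1-high cells in either library, at 112 and 102 CPM in the responder library, against 160 and 139 CPM in the non-responder library. The comparison group was chosen by Arg1, so Arg1 itself is not compared.

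Against the 554 responder Nos2-zero macrophages with at least 10 Cxcl9 UMIs, 16 of 17 hypoxia genes (median 1.15) and 15 of 15 glycolysis genes (0.61) were higher, against 46.1% of all genes (53.9% lower) and a median of -0.03. The interferon-gamma list had a median of -0.06. Ccl8, a monocyte-attracting chemokine gene, had 129 CPM in Nos2-positive and 510 CPM in Cxcl9-high cells, and Mt2 had 274 and 51.3 CPM. In the non-responder library only 29 cells met the Cxcl9 limit, and the hypoxia median was 1.61 and the interferon-gamma median -1.33, where 44% of all genes were higher and 56% lower. In co-detection, Arg1 and Cxcl9 were together in 50.4% of Nos2-positive against 32.8% of Nos2-zero cells of the responder library, and in 17.6% against 6.33% of the non-responder library. At 3000 UMIs per cell these shares were 30.2% against 14.6% and 7.84% against 2.50%, with T cells holding Cxcl9 alone in 18.0% and 2.99% of cases before thinning.

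Nos2-positive macrophages of the responder and the non-responder library were set against each other. The ratio between the Nos2-zero macrophages of those libraries is given beside the lists and part of the genes. Where it is not given, a difference shared by all gated macrophages cannot be told from one of the Nos2-positive cells. Of 7590 measured genes, 930 (12.3%) were more than 2-fold higher and 365 (4.81%) more than 2-fold lower in responder Nos2-positive cells, at 256 and 51 cells. The 5 CPM filter was applied to both sums together. The responder sum held more UMIs, so genes high in responder cells passed the filter more easily. With no CPM filter, among genes with at least 1 count in each sum, 11.9% were higher and 10.005% lower. Cxcl9 had 702 CPM in responder and 88.8 CPM in non-responder Nos2-positive cells, a log2 ratio of 2.98, beside 3.33 between the Nos2-zero cells. H2-Ab1, an MHC class II chain gene, had 13619 and 2196 CPM, a log2 ratio of 2.63 beside 2.45. Ifitm1, an interferon-induced antiviral gene of a family of close copies, had 1275 and 12.5 CPM, a log2 ratio of 6.68 beside 3.41, and within the responder library it was 1275 CPM in Nos2-positive against 503 CPM in Nos2-zero cells. Fam26f had 147 and 6.23 CPM, and Upp1, uridine phosphorylase, 118 and 9.34 CPM. Dnase1l3, a secreted nuclease gene, had 55.3 and 1.56 CPM, the second from 1 count, a log2 ratio of 5.15 (2.65 to 10.46). Pecam1, an adhesion molecule gene, had 40.007 CPM in responder and no count in non-responder Nos2-positive cells, at least 8.56-fold higher by the 3-count limit of the sum.

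In the other direction, Spp1 had 97.3 CPM in responder and 3069 CPM in non-responder Nos2-positive cells, a log2 ratio of -4.98 beside -4.37 between the Nos2-zero cells. Pmp22 had 3.53 and 234 CPM, a log2 ratio of -6.05 beside -4.83, and Mmp12 64.3 and 565 CPM, -3.14 beside -1.89. Folr2, the folate receptor beta gene of resident macrophages, had 5.88 and 85.6 CPM, and Bhlhe41 3.14 and 68.5 CPM. Igf1, the insulin-like growth factor 1 gene, had 1 count (0.392 CPM) in responder and 31.1 CPM in non-responder Nos2-positive cells, a log2 ratio of -6.31 (-11.7 to -3.67) beside -4.27. Adm and Tc2n were also far lower, but 1 non-responder cell held 54.2% of the Adm and 94.0% of the Tc2n counts. The interferon-gamma list had a median log2 ratio of 1.95 between the Nos2-positive cells and 1.88 between the Nos2-zero cells, MHC class II 2.23 and 1.85, hypoxia -1.24 and -0.89, and glycolysis -0.64 and -0.25. The ratios of these 4 lists had the same sign in Nos2-positive and Nos2-zero cells.

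**Figure D5:**
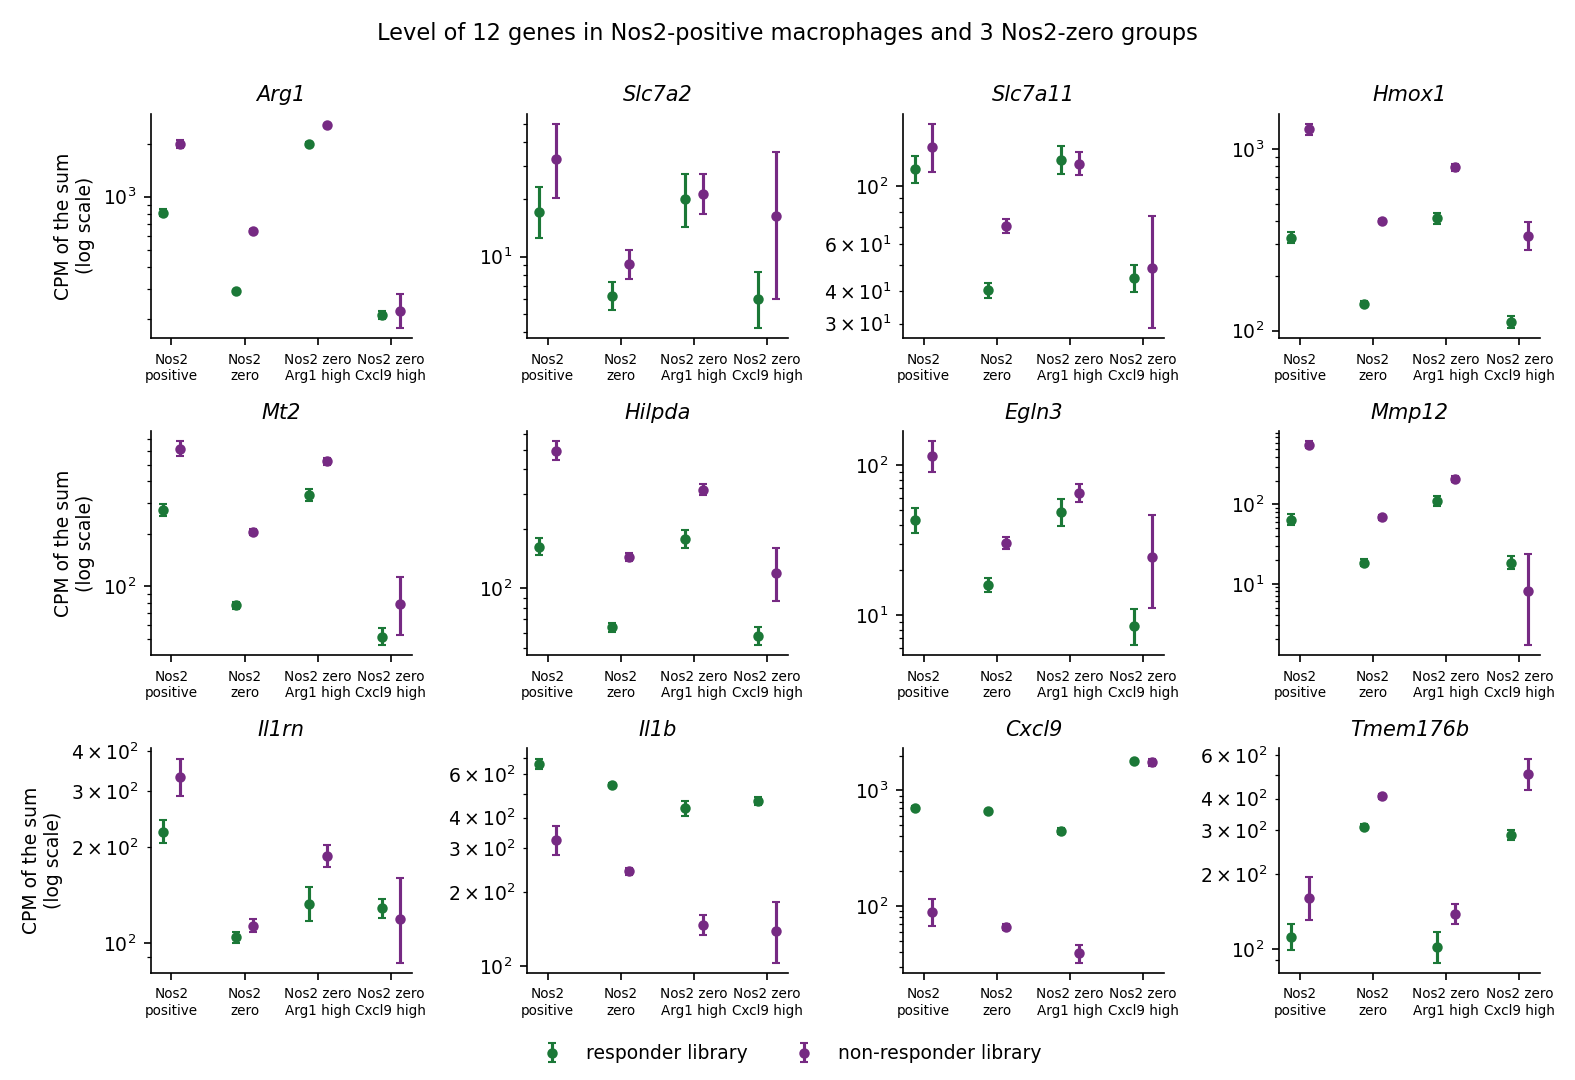
Summed CPM (log axes) of 12 genes in Nos2-positive macrophages and in all, Arg1-high and Cxcl9-high Nos2-zero macrophages of the responder and non-responder libraries; bars are exact Poisson 95% intervals for counting error. Arg1 and Hilpda are higher and Tmem176b lower in Nos2-positive than in Nos2-zero cells of both libraries, and Tmem176b of the Nos2-positive cells overlaps that of the Arg1-high cells.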

How the data were processed

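Per the labels' protocols, CD45+ cells were sorted by flow cytometry and made into 10x 3' libraries. Per the submitters' processing notes, Cell Ranger 1.1.0 and the mm10 (GRCm38) build were used. The sources used here do not name the strand setting. Values deposited by the authors were whole UMI counts per gene and barcode, not normalized, for 27998 genes.

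Cells were gated as described, counts were summed by library and Nos2 class, and sums were scaled to CPM. Log2 ratios carry exact conditional binomial 95% intervals, shares exact Clopper-Pearson intervals and levels exact Poisson intervals, and the limit that a count of 0 allows is 3 counts; all cover counting error only, and cells of 1 library are not replicates. With 1 library per group no test was made. Depths were medians of 10000 UMIs per barcode for the responder and 11729 for the non-responder sample. No doublet caller was run, so doublets were not removed; 1 alternative left out the 5% of cells with the most UMIs. Genes with at least 5 CPM over the Nos2-positive and Nos2-zero sums together, in each library, were measured. Between the libraries the filter was 5 CPM over both Nos2-positive sums together. T cells, the background for shares, had at least 3 Cd3 UMIs and under 0.5% C1q. The calculations were tested on simulated data.

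Named were the 15 genes higher and 10 lower in both libraries whose interval bound nearest 0 was farthest from it in the weaker library, the 8 in each direction between libraries by that bound, the label's markers and up to 5 genes per list by summed count. Genes named beyond that rule were chosen after their values were seen. The cells and gene lists were chosen with earlier results of these data known. Coordinates come from GENCODE vM21 (27645 of 27998 symbols matched), promoters from RefSeq. Tools were Python 3.11.15, numpy 2.4.6, scipy 1.17.1, pandas 2.3.3, matplotlib 3.10.9, R 4.3.3 and edgeR 4.0.16, used for TMM scaling only. Alternatives covered the gate, the depth per cell, the Nos2 minimum, the expression filter, the fold and the scaling. The result of 1 listed gene is not reported here.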

Additional observations from a re-analysis of the deposited data

Results flagged for a closer look

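For 15 genes named or listed, the log2 ratio of Nos2-positive over Nos2-zero macrophages had opposite signs in the 2 libraries, with both intervals off 0. Opposite signs were common, since of all measured genes only 20.5% were above 1 in both libraries and 42.5% below 1 in both. The share of all genes that also had both intervals off 0 is not given here, so the count of 15 has no background. The intervals cover counting error only, and small ratios of abundant genes can lie off 0. The difference between the libraries was not tested, since each group had 1 library. Ifitm1 was at 1.34 in the responder library, against -1.92 in the non-responder library, Fn1 (fibronectin) at 1.03 and -0.46, Osm (oncostatin M) at 0.34 and -0.80, and Pf4 (platelet factor 4) at 0.61 and -0.14. The macrophage genes Csf1r, Lyz2, Trem2 and Apoe were at 0.17, 0.14, 0.14 and 0.0496 in the responder library, against -0.59, -0.41, -0.25 and -0.32 in the non-responder library. Tgfbi was at 0.0716 and -0.57, Junb at 0.10 and -0.48, and Nfkbia at 0.19 and -0.21.

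The other 4 genes had the opposite order. The heat shock gene Hspa1a was at -1.14 in the responder library, against 0.31 in the non-responder library, Atf3 at -0.46 and 0.21, and Acp5 at -0.35 and 0.35. Tc2n was at -1.38 and 1.88, and 1 Nos2-positive cell held 94.0% of its non-responder counts, without which the non-responder ratio was -2.15.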

How the results depend on the processing

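The responder and non-responder shares of Nos2-positive cells were 2.74% and 0.902% with at least 2 Nos2 UMIs, 0.975% and 0.601% with at least 3, 8.02% and 2.68% with C1q at least 2%, 3.34% and 1.504% at 3000 UMIs per cell and 7.11% and 2.63% at 6000. The responder share was higher in each, but with at least 3 Nos2 UMIs the intervals overlapped. The 26 genes past 2-fold higher in both libraries became 14 at 20 CPM, 154 with no filter, 43 at 3000 UMIs per cell, 50 with at least 2 Nos2 UMIs, 97 with at least 3 and 119 at 1.5-fold; the 18 lower became 7, 53, 33, 63, 93 and 159 under the same settings and 28 as a mean over cells. Of the 26, 14, 26, 23, 22, 22 and 26 were among those calls in that order of settings, and of the 18, 7, 16, 5, 10, 4, 18 and, as a mean over cells, 17; with C1q at least 2% 19 of the 26 and 5 of the 18 were shared, and without a limit on dividing and interferon genes 21 and 4. With no limit on dividing and interferon genes 10 were lower, and among cells without an Arg1 UMI 41 were lower, both alternatives chosen after seeing the data. Among cells without an Arg1 UMI 25 were higher, of which 10 were among the 26, and of the 41 lower 1 was among the 18.

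Between responder and non-responder Nos2-positive cells, the 12.3% of measured genes past 2-fold higher became 7.96% at 20 CPM, 24.5% at 1.5-fold and 7.98% with no limit on dividing and interferon genes. Of the 930 genes higher, 285 were shared at 3000 UMIs per cell, 326 with at least 2 Nos2 UMIs, 218 with at least 3 and 485 with C1q at least 2%, and of the 365 lower 219, 200, 199 and 219. The 4.81% lower became 3.12% at 20 CPM, 10.005% with no filter, 10.6% at 3000 UMIs per cell, 9.73% with at least 2 Nos2 UMIs, 15.8% with at least 3 and 13.9% at 1.5-fold. With C1q at least 2%, Mmp12 reversed to a log2 ratio of -1.46 in the non-responder library and 2.24 between responder and non-responder Nos2-positive cells; the cause was not tested. Of 718 values of named genes under alternatives 717 kept their direction, but 165 moved out of their interval. Of 780 list medians 706 kept their direction and 86 moved out of their interval. Of 185 values of named genes between the libraries 184 kept their direction and 40 moved out of their interval. Many of the named genes were chosen for intervals far from 0, and most alternatives reuse the same cells, so a kept direction is weak support. No paired analysis was possible because each group had 1 library. Depth limits genes near 4.67 CPM in the non-responder sum, where 3 counts make that level.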
